A study of Mus musculus with 10 samples.

Results

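The interleukin-1 system was followed in the mouse hippocampus through 9 genes: the ligands Il1a and Il1b, the antagonist Il1rn, the receptor chains Il1r1, Il1rap and Il1r2, the processing genes Casp1 and Nlrp3, and the related ligand Il18. Every probe set whose only platform gene symbol is among these names was taken. They are 16 of the 45037 probe sets tested, and all 9 genes are represented. The mice were adult female SJL/J animals, obtained at 8 to 10 weeks of age, and whole hippocampi were collected 2 days after an axonal lesion, which all 10 mice received. In 5 mice (AxL) the lesion was the only treatment. The other 5 (TPlp+AxL) received, before the lesion, an adoptive transfer of T cells specific for proteolipid protein (Plp), a major protein of central myelin. Each mouse gave 1 array. Unlesioned hippocampi, and transfer without a lesion, were not analysed here, so every value compares lesioned tissue with and without the transferred cells. The dose of cells and the interval between transfer and lesion were not found in the labels. Because whole tissue was measured, a change in the number of cells that carry a transcript and a change in the amount of it per cell cannot be told apart.

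Interleukin-1 is an early alarm cytokine of tissue injury. Interleukin-1 alpha and beta bind the same receptor, Il1r1, which recruits the accessory chain Il1rap and signals through the adaptor Myd88 and kinases of the Irak family to nuclear factor kappa B. The system is also held back outside the cell: Il1rn occupies the receptor without signalling, and Il1r2 binds ligand as a decoy. Pro-interleukin-1 beta and pro-interleukin-18 are cut to their active forms by caspase-1 (Casp1), which inflammasomes, among them that of Nlrp3, activate. In the injured brain, microglia and infiltrating myeloid cells are known sources of interleukin-1, and endothelial cells are prominent responders.

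The promoters of 4 members are shown because the results turn on the contrast between members that rose (Il1b, Il1rn, Casp1) and a ligand of the same processing route for which no change was called (Il18). All are from RefSeq on GRCm38.p6, written 5′ to 3′ on the strand of the gene, and end just before the gene's annotated span, so that the first base lies 250 bases before the listed transcription start. Capitals mark matches to any of 4 motifs searched on either strand.
Il1b (chr2:129371165-129371389, minus strand): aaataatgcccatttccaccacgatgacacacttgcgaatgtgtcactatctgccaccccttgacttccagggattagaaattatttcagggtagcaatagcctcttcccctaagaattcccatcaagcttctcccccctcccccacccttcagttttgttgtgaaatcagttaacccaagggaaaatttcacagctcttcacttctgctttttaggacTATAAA
Il1rn (chr2:24336610-24336859, plus strand): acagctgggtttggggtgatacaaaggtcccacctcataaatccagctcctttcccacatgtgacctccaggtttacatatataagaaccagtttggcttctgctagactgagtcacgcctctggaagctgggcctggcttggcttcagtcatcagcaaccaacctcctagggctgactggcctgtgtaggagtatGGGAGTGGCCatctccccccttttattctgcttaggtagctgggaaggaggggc
Casp1 (chr9:5298267-5298516, plus strand): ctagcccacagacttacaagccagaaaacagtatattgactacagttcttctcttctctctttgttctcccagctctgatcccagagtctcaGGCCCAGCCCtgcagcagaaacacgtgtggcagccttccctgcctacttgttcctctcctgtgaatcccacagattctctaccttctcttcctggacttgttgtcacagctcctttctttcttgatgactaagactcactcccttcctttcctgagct
Il18 (chr9:50554450-50554699, plus strand): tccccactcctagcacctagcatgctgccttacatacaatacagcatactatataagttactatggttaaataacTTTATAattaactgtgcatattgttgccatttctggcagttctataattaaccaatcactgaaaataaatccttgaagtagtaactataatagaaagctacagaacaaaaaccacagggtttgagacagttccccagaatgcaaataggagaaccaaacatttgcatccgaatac
RefSeq lists 13 starts for the 9 genes, 3 of them for Il1rn, and the 250 bases before each were searched. The TATA box letters TATAAA were found before 3 starts, and 12.4% of all 32851 listed promoters hold them. In Il1b they lie 31 to 26 bases before the start and in Il1a 32 to 27 bases before it, in the same orientation as the gene, while the match of Il18 lies 175 to 170 bases before its start on the opposite strand. The nuclear factor kappa B letters, GGG and CC with any 5 bases between, were found before 6 of the 13 starts, including those of Il1rn and Casp1 shown here, beside 45.8% of all promoters. The interferon gamma-activated site letters TTCNNNGAA were found before 1 start, that of Il1r2 (7.02% of all promoters), and those of the interferon-stimulated response element, GAAA and GAAA with any 2 bases between, before 0 (2.98%). No array value bears on binding at these letters. The reference is that of C57BL/6J mice, and the animals were SJL/J. In that annotation Il1a and Il1b are neighbouring protein-coding genes on chromosome 2, which also holds Il1rn, and Il1r2 and Il1r1 are neighbours on chromosome 1. Casp1 and Il18 are both on chromosome 9, Il1rap is on chromosome 16 and Nlrp3 on chromosome 11.

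The arrays had similar levels, with medians over all probe sets of 7.875 to 7.900 in AxL and 7.903 to 7.920 in TPlp+AxL on the log2 scale. The medians of TPlp+AxL thus all lay above those of AxL, by a small amount. The hippocampal neuron markers were all present: each of the 12 had a mean above the median level of all probe sets, and their mean per array was 10.47 to 10.70. AxL 3, AxL 5 and TPlp+AxL 1 stood apart from the rest by markers of the choroid plexus, the secretory epithelium of the ventricles, with list means of 10.17, 9.33 and 9.40 against 8.12 to 8.24 on the other 7 arrays. The called members, and the other named genes called by their brightest probe set, are therefore also given without these 3 arrays.

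Transcripts of both interleukin-1 ligands, of the receptor antagonist and of caspase-1 rose in TPlp+AxL, and no member fell. A probe set was called where limma gave it a Benjamini-Hochberg adjusted p under 0.05, counted over the 45037 tested. Of the 16 members' probe sets 5 passed, all higher: those of Il1b, Il1a and Casp1, and 2 of the 3 of Il1rn. Over all probe sets 0.835% were called, 0.646% higher and 0.189% lower. The 5 arrays of each group did not overlap in 6 of the 16, always with TPlp+AxL above, where 1.94% of all probe sets have that order and 3.59% do not overlap in either direction. With each gene represented by its brightest probe set, 4 of the 9 were called higher, beside 0.978% of all 18193 genes. The median log2 change of the 16 was 0.13, and that of all probe sets was -0.0034.

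**Figure D1:**
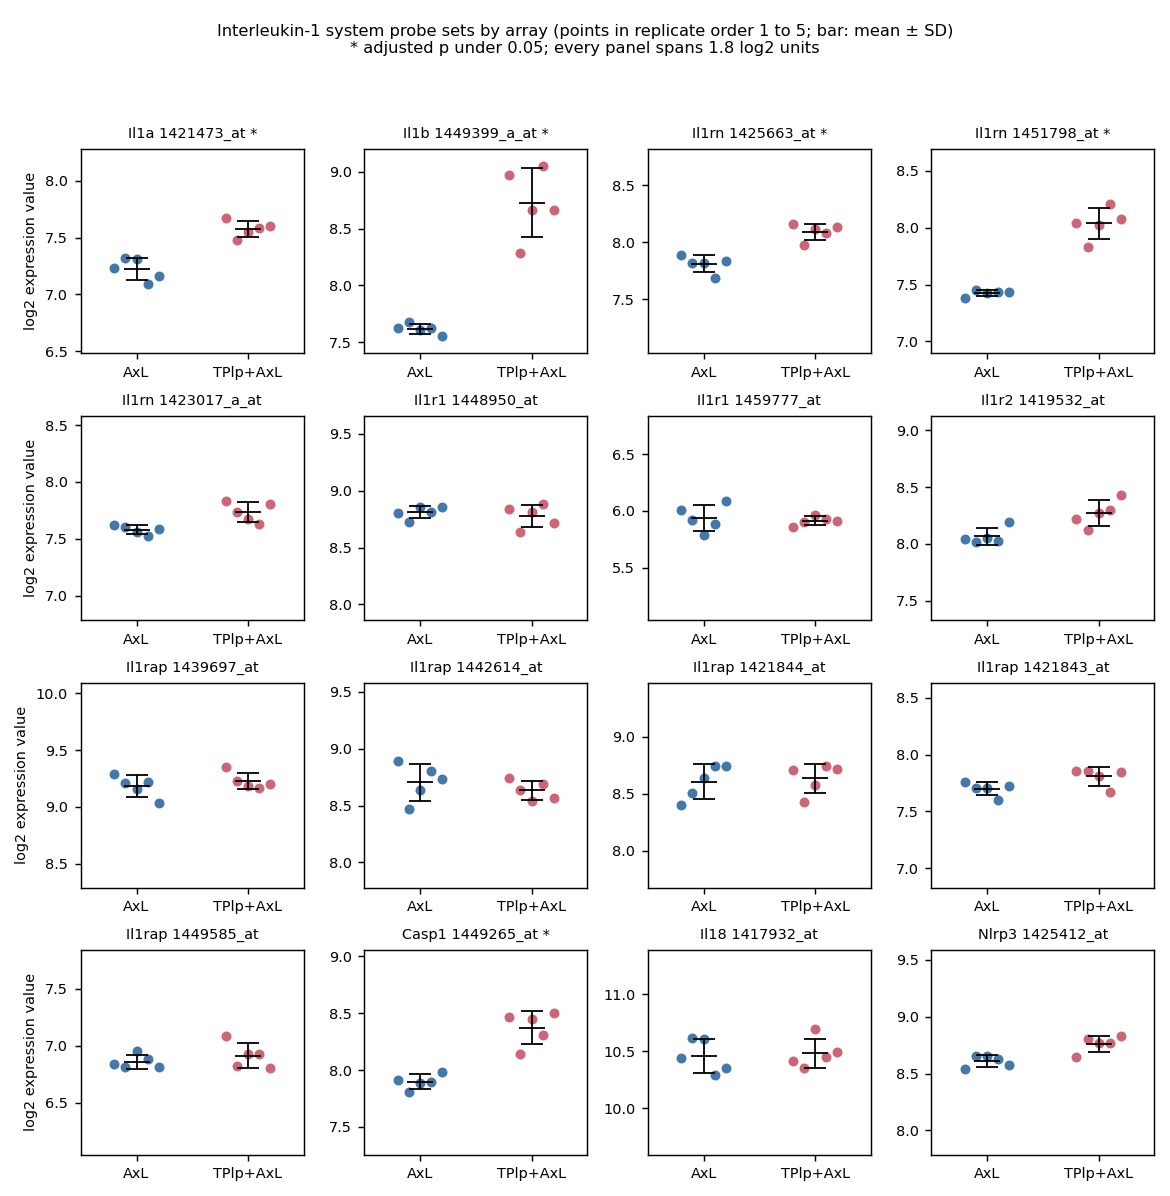
Log2 expression value of each of the 16 probe sets (vertical axis, 1.8 log2 units in every panel) on the 5 AxL arrays (blue) and the 5 TPlp+AxL arrays (red), with the points of a group in replicate order and the bar giving mean ± SD. Panels with an asterisk passed an adjusted p under 0.05; in Il1b the TPlp+AxL points lie between 8.29 and 9.05, above all AxL points.

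Il1b encodes interleukin-1 beta, the inducible ligand that needs cleavage to act. Its single probe set (1449399_a_at) read 7.63, 7.68, 7.60, 7.62 and 7.55 on AxL arrays 1 to 5 and 8.97, 8.29, 8.66, 9.05 and 8.66 on TPlp+AxL arrays 1 to 5. The AxL arrays lay within a narrow band, the TPlp+AxL arrays were spread more widely, and a gap of 0.61 separated the groups. All AxL values lay below the median level of all probe sets (7.90), and RMA compresses differences of dim probe sets. The means were 7.62 ± 0.04 (SD, n = 5) and 8.73 ± 0.30 (SD, n = 5), a log2 change of 1.11 (SE 0.12, 95% interval 0.85 to 1.37, adjusted p = 0.00171) or 2.16-fold. TPlp+AxL 2 was the lowest array of its group and TPlp+AxL 4 the highest. With any single array left out the change was 1.03 to 1.22 and the adjusted p by limma at most 0.0104.

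Il1a encodes interleukin-1 alpha, which is active as made and is released from damaged cells. Its probe set (1421473_at) read 7.24, 7.32, 7.31, 7.09 and 7.16 on AxL arrays 1 to 5 and 7.68, 7.48, 7.55, 7.58 and 7.60 on TPlp+AxL arrays 1 to 5. All TPlp+AxL arrays lay above all AxL arrays, with a gap of 0.16. The log2 change was 0.35 (SE 0.05, 95% interval 0.24 to 0.47, adjusted p = 0.00963), or 1.28-fold. This probe set lies below the median level of all probe sets.

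Il1rn, the receptor antagonist, has 3 probe sets, and they did not give the same size of change. The probe set 1451798_at read 7.38, 7.46, 7.42, 7.44 and 7.44 in AxL and 8.04, 7.83, 8.03, 8.21 and 8.08 in TPlp+AxL, in replicate order. The groups were separated by 0.37 and the log2 change was 0.61 (SE 0.06, 95% interval 0.48 to 0.74, adjusted p = 0.00115), or 1.53-fold. The brightest probe set, 1425663_at, read 7.89, 7.82, 7.82, 7.69 and 7.84 in AxL and 8.16, 7.98, 8.12, 8.08 and 8.13 in TPlp+AxL, again without overlap. Its change was 0.28 (SE 0.05, 95% interval 0.18 to 0.39, adjusted p = 0.0178). That call was lost without TPlp+AxL 3 (0.0558), TPlp+AxL 4 (0.0572) or TPlp+AxL 5 (0.0576), each an adjusted p, while the change stayed at 0.25 to 0.31 with any single array left out. The probe set 1423017_a_at ran from 7.53 to 7.63 in AxL and from 7.63 to 7.84 in TPlp+AxL, with the nearest arrays of the groups 0.0012 apart. Its change of 0.15 (95% interval 0.06 to 0.25, adjusted p = 0.164) did not pass. Which Il1rn transcripts each probe set reads is not given in the files, and the differences between the probe sets were not tested.

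Casp1 encodes the protease that matures interleukin-1 beta and interleukin-18. Its probe set (1449265_at) read 7.91, 7.81, 7.89, 7.89 and 7.99 in AxL and 8.46, 8.14, 8.45, 8.31 and 8.50 in TPlp+AxL, in replicate order. Every TPlp+AxL array lay above every AxL array, TPlp+AxL 2 by the least, with a gap of 0.16. The means were 7.90 ± 0.06 (SD, n = 5) and 8.37 ± 0.15 (SD, n = 5), a log2 change of 0.48 (SE 0.07, 95% interval 0.33 to 0.62, adjusted p = 0.00648) or 1.39-fold.

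Nlrp3, the sensor of the best known caspase-1 inflammasome, did not pass. It ran from 8.54 to 8.66 (median 8.63) in AxL and from 8.64 to 8.83 (median 8.77) in TPlp+AxL. Of the TPlp+AxL arrays 4 lay above all AxL arrays, and TPlp+AxL 1 fell within them. The log2 change was 0.15 (SE 0.04, 95% interval 0.06 to 0.24, adjusted p = 0.157).

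Il18, the other ligand that caspase-1 matures, ran from 10.29 to 10.62 (median 10.44) in AxL and from 10.35 to 10.69 (median 10.45) in TPlp+AxL. The groups overlapped almost fully. Its change of 0.02 (SE 0.08, adjusted p = 0.924) has a 95% interval of -0.15 to 0.19, and its sign turned with each array's median subtracted (-0.0079).

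The signalling receptor chains did not pass in any of 7 probe sets, of which 1 lies at the lower end of the array's range. Il1r1, the chain that binds ligand, ran from 8.73 to 8.86 in AxL and from 8.64 to 8.88 in TPlp+AxL in its brighter probe set (1448950_at). The groups overlapped, and the change of -0.03 (SE 0.05, adjusted p = 0.785) has a 95% interval of -0.14 to 0.08. The other Il1r1 probe set (1459777_at) lay at 5.79 to 6.08 over all 10 arrays, at percentile 0.382 of all levels, so that it bears little on whether Il1r1 changed. It had a difference of -0.03 (95% interval -0.14 to 0.09, adjusted p = 0.850), with a sign that turned after quantile normalization (0.0095).

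Il1rap, the accessory chain that completes the receptor, has 5 probe sets with changes from -0.07 to 0.11 and adjusted p from 0.319 to 0.895. Their groups overlapped in every case. The brightest (1439697_at) ran from 9.03 to 9.29 in AxL and from 9.17 to 9.35 in TPlp+AxL, with a change of 0.05 (95% interval -0.07 to 0.16, adjusted p = 0.697). The probe set nearest to the threshold (1421843_at) ran from 7.60 to 7.76 in AxL and from 7.67 to 7.86 in TPlp+AxL, a change of 0.11 (95% interval 0.01 to 0.21, adjusted p = 0.319).

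The decoy receptor Il1r2 ran from 8.02 to 8.19 (median 8.04) in AxL and from 8.12 to 8.43 (median 8.28) in TPlp+AxL. AxL 5 was the highest AxL array and overlapped only TPlp+AxL 2. The change of 0.20 (SE 0.06, 95% interval 0.08 to 0.33, adjusted p = 0.156) did not pass, and it did not pass with any single array left out (adjusted p 0.0874 to 0.343).

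**Figure D2:**
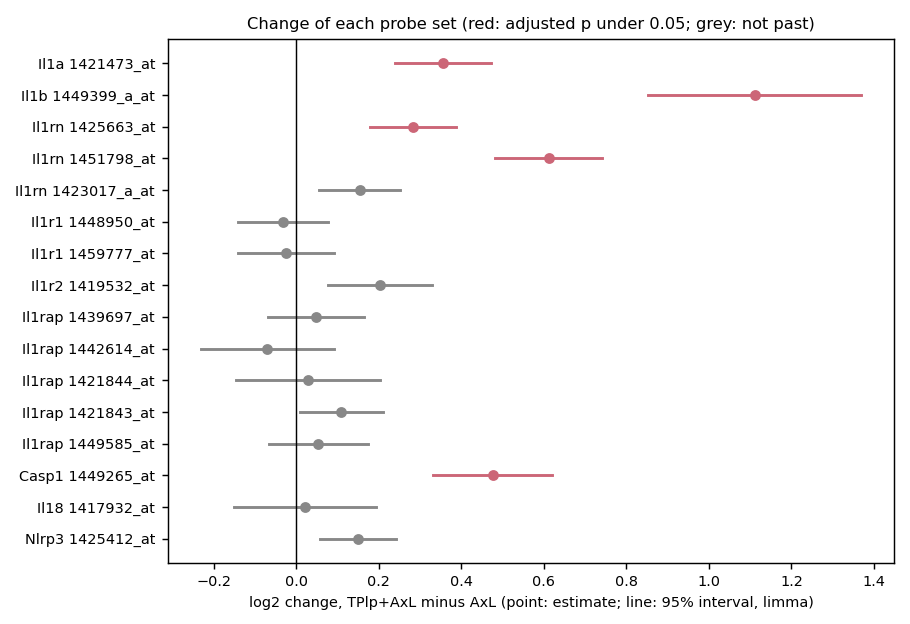
Log2 change of TPlp+AxL against AxL for each of the 16 probe sets (horizontal axis), with points for the estimates and lines for the 95% intervals of limma. The 5 probe sets with an adjusted p under 0.05 are red, from 0.28 for the brightest of Il1rn to 1.11 for Il1b, and the intervals of the Il1r1 and Il18 probe sets include 0.

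Leaving out AxL 3, AxL 5 and TPlp+AxL 1 together left 3 AxL and 4 TPlp+AxL arrays and changed the sizes little. The log2 change was 1.02 for Il1b, 0.34 for Il1a, 0.61 and 0.28 for the called Il1rn probe sets and 0.48 for Casp1. The groups of all 5 were apart on the full set of arrays, and leaving arrays out cannot make them overlap. None of the 5 passed in that limma fit, with adjusted p of 0.127, 0.187, 0.125, 0.254 and 0.174 in the same order. Over all probe sets 1 passed there and 4743 had an unadjusted p under 0.05, as had 7 of the 16 members.

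Within an array, Il1b moved further than every other member. The difference between Il1b and the brightest probe set of each other member was taken on each array and set against its AxL mean, which removes any shift shared by a whole array on the log2 scale. Against Il1rn this difference ran from -0.09 to 0.13 in AxL and from 0.50 to 1.17 in TPlp+AxL, a shift of 0.83. Against Il1a the shift was 0.76 and against Casp1, the nearest by brightest probe sets, 0.64 (0.42 to 1.03 on the TPlp+AxL arrays). Il1rn is represented here by 1425663_at, with a log2 change of 0.28. Its probe set 1451798_at rose by 0.61, more than Casp1 (0.48), so which member lies nearest to Il1b depends on the probe set. Against the receptor chain Il1r1 the shift was 1.14. The groups did not overlap for any of the 8 other members. Il1b alone separated the groups by 0.61, so its difference from a gene that varies little separates them too. The share of all genes for which this holds was not determined. These differences describe unequal change on the same arrays and were not tested. The members compared lie at unlike levels, with Il1a at percentile 33.5 and Il18 at percentile 89.9 of all probe sets.

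**Figure D3:**
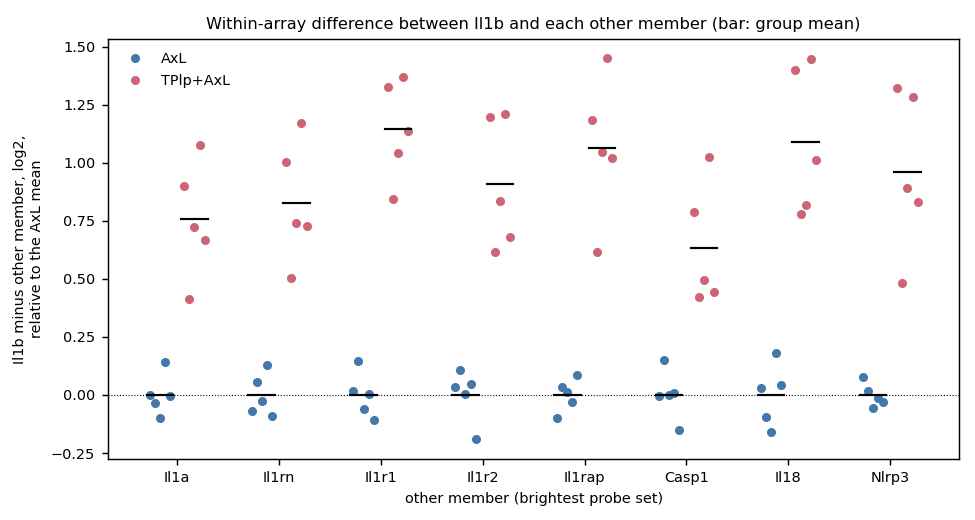
Il1b minus each other member on the log2 scale (vertical axis, set to 0 at the AxL mean), by array, with AxL in blue, TPlp+AxL in red and bars for group means. Each member is shown by its brightest probe set. The TPlp+AxL points lie above all AxL points for each of the 8 members, as they do for Il1b itself. The smallest shift so measured was against Casp1 (0.64) and the largest against Il1r1 (1.14).

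The TPlp+AxL mice differed among themselves. TPlp+AxL 2 was the lowest array of its group in all 5 called probe sets and in 7 of the 9 genes by their brightest probe set. The highest array was not always the same: TPlp+AxL 1 and TPlp+AxL 5 were each highest in 3 of the 9 genes, TPlp+AxL 4 in 2 and TPlp+AxL 3 in 1. Over the 10 arrays, after removal of each group's mean, Pearson's r was 0.70 between Il1a and Il1rn, 0.67 between Il1rn and Casp1, 0.74 between Il1r2 and Casp1 and 0.75 between Il1b and Il1r1. The other pairs of Il1b were lower, at 0.51 with Il1a, 0.45 with Il1rn, 0.40 with Casp1 and -0.42 with Nlrp3. These values describe 10 mice, and each pair shares the same hybridisations. Il1b deviated from its group mean by at most 0.064 on the AxL arrays. On TPlp+AxL 2, 4 and 1 it deviated by -0.44, 0.33 and 0.24. Its r values, here and with the marker lists below, therefore rest mainly on the TPlp+AxL arrays.

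Some markers of cells that enter the brain were also higher in TPlp+AxL, and others did not pass. Over all genes by their brightest probe set 0.978% were called higher, which stands beside the counts of the marker lists. The marker list of monocytes and infiltrating macrophages had a mean of 8.63 to 8.97 on the AxL arrays and 9.44 to 9.79 on the TPlp+AxL arrays, without overlap, and 4 of its 9 measured genes were called higher. Chil3, a chitinase-like protein of myeloid cells, rose by 2.18 (SE 0.15, adjusted p = 0.000282), and Plac8, abundant in circulating monocytes, rose by 1.92 (SE 0.23, adjusted p = 0.00281), each by more than any member. Fn1 (-0.0017) and Vcan (0.10), made by these cells among others, did not pass, nor did F13a1 (0.58), S100a4 (0.49) and the brightest probe set of Ccr2 (0.13). Other probe sets of Ccr2 rose by 0.48 (adjusted p = 0.00956) and 0.23 (adjusted p = 0.0168), while a further one did not pass (0.08, adjusted p = 0.436). The call at 0.23 was lost without AxL 1 or AxL 5 (adjusted p 0.0506 and 0.0513). The neutrophil list ran from 8.27 to 8.58 in AxL and from 8.63 to 8.76 in TPlp+AxL, with 3 of 10 genes higher. These were S100a8 (1.14) and S100a9 (1.18), which monocytes also carry, and the collagenase Mmp8 (0.24). The granule genes Camp (-0.05), Ltf (0.07) and Ngp (0.08) and the receptor gene Csf3r (-0.06) did not pass. Marker genes that did not pass are named after their values were seen, to show how the lists divide. Ms4a4c of the monocyte list rose by 0.76 (adjusted p = 0.0293). Its call was lost without any 1 AxL array or TPlp+AxL 1 or 4 (adjusted p 0.0519 to 0.0963). It was also lost with the choroid plexus mean as a covariate (0.0617), while its other probe set passed (1.55, adjusted p = 0.00808). The calls of S100a8 and S100a9 were lost without TPlp+AxL 4 (adjusted p 0.0653 and 0.0599), and that of S100a8 also without AxL 1 (0.0525). The Mmp8 call was lost without AxL 1, 4 or 5 or TPlp+AxL 2, 3, 4 or 5 (adjusted p 0.0666 to 0.115), after quantile normalization (0.0601) and with the choroid plexus mean as a covariate (0.0796).

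The T cell list ran from 7.59 to 7.68 in AxL and from 7.81 to 8.03 in TPlp+AxL. Of its 9 genes 2 were called higher, Cd3g (0.87, SE 0.13, adjusted p = 0.0122) and Cd3d (0.63, SE 0.12, adjusted p = 0.0302), both chains of the T cell receptor complex. The Cd3d call was lost without AxL 1, 3, 4 or 5 or TPlp+AxL 4, with adjusted p up to 0.0977, and with the choroid plexus mean as a covariate (0.0699). The other 7 genes, Cd4 (0.06) and Cd8a (0.02) among them, did not pass.

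Markers of microglia, endothelium and oligodendrocytes had mostly negative changes, and none was called. The homeostatic microglia list overlapped between the groups, at 9.28 to 9.58 in AxL and 9.13 to 9.45 in TPlp+AxL, and 0 of its 9 genes were called, Tmem119 with -0.27 (adjusted p = 0.353) and P2ry12 with -0.21 (adjusted p = 0.615). All 9 endothelial genes had a negative change, with a median of -0.17, and so had all 7 oligodendrocyte genes, with a median of -0.21, beside -0.03 for all genes. None of these 16 passed in the main limma fit, and the signs were the same after quantile normalization, while cyclic loess left 8 of 9 endothelial genes negative. Some passed in other fits. The endothelial Abcb1a (-0.45, main adjusted p = 0.0515) and Tek passed after quantile normalization, after cyclic loess and with array medians subtracted, among other settings. Slco1a4 passed with array medians subtracted and with array weights. Of the oligodendrocyte genes, Mag and Mobp passed without AxL 1, and Mbp without TPlp+AxL 1. The oligodendrocyte median was -0.14 after quantile normalization. Negative changes were also found for 7 of 8 astrocyte, 9 of 12 hippocampal neuron and 10 of 10 choroid plexus genes. Of all 18193 genes 11415 were negative. Probe sets with a level over 12, those of Mbp, Cnp and Mobp among them, had a median change of -0.14. The endothelial transporter Slco1a4 (-0.33, adjusted p = 0.0599) and the receptor Tek (-0.31, adjusted p = 0.0672) lay below AxL on every TPlp+AxL array. An unadjusted p under 0.05 was found for 2 of 9 microglial, 5 of 9 endothelial and 4 of 7 oligodendrocyte genes, beside 17.9% of all genes. None of the lists' genes is at 0, since array values have a floor of background. After removal of group means, the r of the monocyte list over the 10 arrays was 0.29 with Il1b, 0.02 with Il1a, -0.19 with Il1rn and 0.04 with Casp1. Il1b had r of 0.42 with the neutrophil, 0.40 with the microglia, 0.20 with the T cell and 0.45 with the oligodendrocyte list. For the other called genes the largest r in size over all marker lists were as follows. Il1a had 0.716 with the neutrophil list, followed by -0.675 with the endothelial list. Casp1 had 0.681 with the microglia list, and Il1rn had 0.327 with the choroid plexus list. Without the 3 arrays with high choroid plexus markers Chil3 passed (2.27, adjusted p = 0.0283). Plac8 (1.88, adjusted p = 0.159), Ms4a4c (0.78, 0.317), S100a8 (0.98, 0.13), S100a9 (1.06, 0.131), Mmp8 (0.25, 0.227), Cd3g (0.88, 0.233) and Cd3d (0.68, 0.265) did not pass. The part of these cells in the change of the members was not tested.

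**Figure D4:**
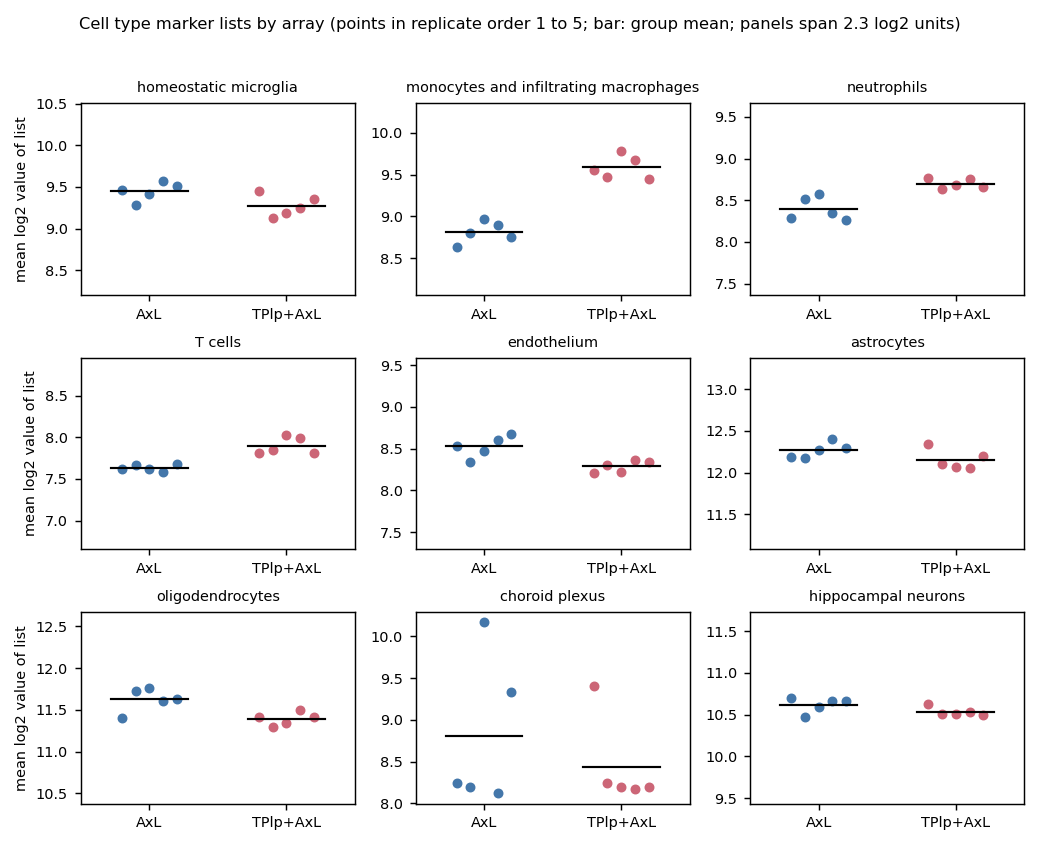
Mean log2 value of each marker list (vertical axis, 2.3 log2 units in every panel) by array, with AxL in blue, TPlp+AxL in red, points in replicate order and bars for group means. The monocyte, neutrophil and T cell lists do not overlap between the groups, and in the choroid plexus panel AxL 3, AxL 5 and TPlp+AxL 1 lie at 10.17, 9.33 and 9.40, above the other 7 arrays.

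The genes that carry the interleukin-1 signal inside the cell moved little. Of the signalling chain below the receptor, 17 of 21 listed genes had a brightest probe set to test, and 1 was called higher and 0 lower, with a median change of -0.04 beside -0.03 for all genes. The share called higher over all genes, for this list and those that follow, was 0.978%. That gene was Myd88, the adaptor shared with Toll-like receptors, with a mean of 8.57 on the AxL arrays and 8.95 on the TPlp+AxL arrays and a log2 change of 0.38 (SE 0.06, adjusted p = 0.0142). The groups did not overlap, and the call was lost without TPlp+AxL 4 (adjusted p = 0.0508).

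Among other ligands and receptors of the interleukin-1 family, 8 of 13 were measured and 1 was called higher, with a median change of 0.07. It was Il18r1, the binding chain of the interleukin-18 receptor, carried by T cells and natural killer cells among others, which rose by 0.47 (SE 0.09, adjusted p = 0.0332). The call was lost without AxL 3, 4 or 5 or TPlp+AxL 3, 4 or 5, with adjusted p of 0.0660 to 0.103. The ligand Il18 itself did not pass, as given above.

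Of the genes of inflammasomes and of release through the membrane, 15 of 19 were measured, 2 were called higher and 0 lower, and the median change was 0.12. Casp4 is known as caspase-11 in mice and senses bacterial lipopolysaccharide inside the cell. Its mean was 7.48 on the AxL arrays (SD 0.06, n = 5) against 8.20 on the TPlp+AxL arrays (SD 0.14, n = 5), and the log2 change was 0.72 (SE 0.06, adjusted p = 0.00081) or 1.64-fold. Gsdmd, whose cleaved form makes the pore through which mature interleukin-1 beta leaves, rose by 0.27 (SE 0.05, adjusted p = 0.0315). The Gsdmd call was lost without AxL 1, 2 or 3 or TPlp+AxL 4 or 5, with adjusted p of 0.0596 to 0.0828, and also after quantile normalization (0.0551) and with the choroid plexus covariate (0.0699).

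Of 24 genes known to be induced by interleukin-1, all measured, 7 were called higher and 0 lower, and the median change was 0.21. Over all genes 0.978% were called higher, and the median change was -0.03. Other cytokines induce these genes too. The 4 with the largest changes were Il6, Ccl2, Socs3 and Saa3. Il6, an acute phase cytokine, rose by 1.70 (SE 0.19, adjusted p = 0.00221) from a mean of 6.60 to 8.30. Its AxL mean lies at percentile 7.95 of all probe sets, so that the level there is near the lower end of the array's range, where RMA compresses differences. The monocyte attractant Ccl2 rose by 1.64 (SE 0.14, adjusted p = 0.000779) from 8.91 to 10.55. Socs3, a feedback inhibitor of cytokine receptors, rose by 1.24 (SE 0.18, adjusted p = 0.0078). Saa3, an acute phase protein, rose by 1.09 (SE 0.19, adjusted p = 0.0227), and its call was lost without AxL 5 or TPlp+AxL 1, 3, 4 or 5, with adjusted p of 0.0503 to 0.0806. For Cxcl1, a neutrophil attractant named here after its values were seen, the brightest probe set differed by 0.04 (adjusted p = 0.740), while its other probe sets rose by 1.10 (adjusted p = 0.00963) and 0.58 (adjusted p = 0.0061). Without the 3 arrays with high choroid plexus markers, 0 genes of these 4 lists passed by limma. Their log2 changes there were 0.32 for Myd88, 0.44 for Il18r1, 0.70 for Casp4, 0.28 for Gsdmd, 1.72 for Il6, 1.68 for Ccl2, 1.29 for Socs3 and 1.22 for Saa3, with adjusted p of 0.0595 (Ccl2) to 0.299 (Myd88). The called Cxcl1 probe sets gave 1.23 and 0.66 (adjusted p = 0.126 and 0.104).

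**Figure D5:**
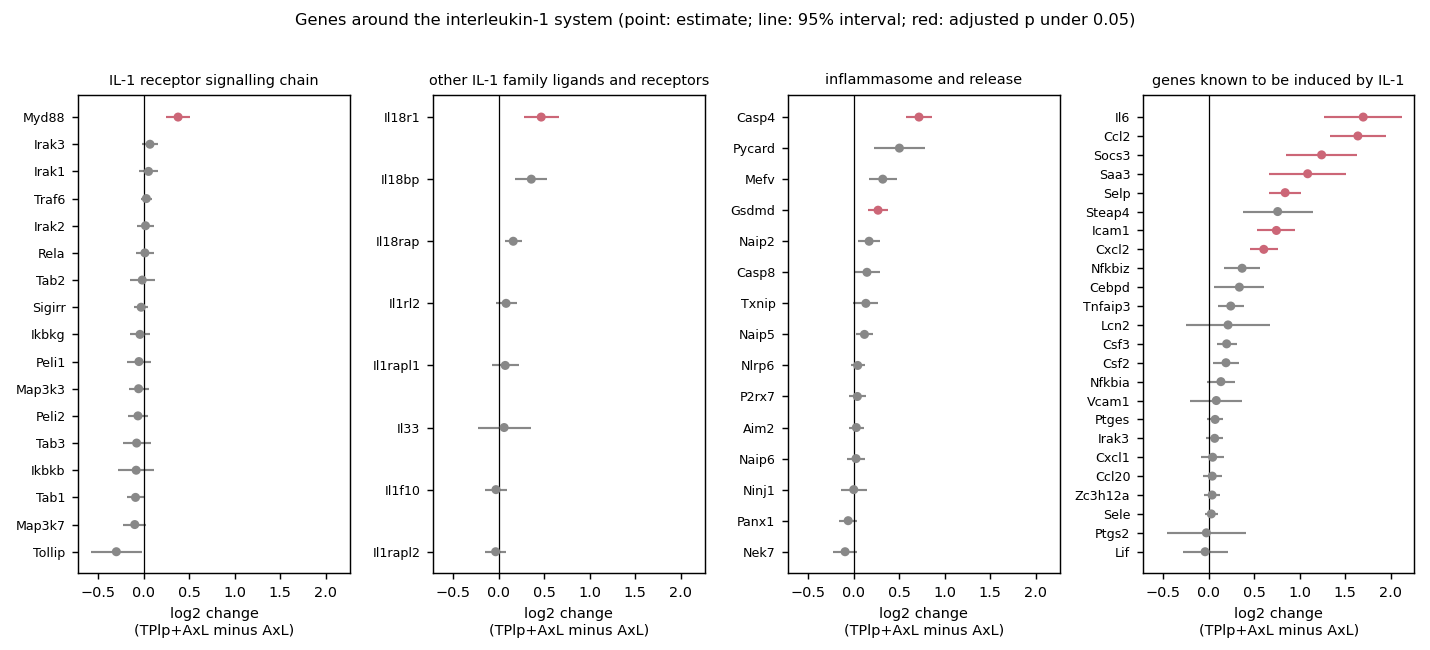
Log2 change of TPlp+AxL against AxL (horizontal axis) for the brightest probe set of each measured gene in 4 lists around the interleukin-1 system, with lines for the 95% intervals and red for an adjusted p under 0.05. Red points number 1 of 17 in the signalling chain, 1 of 8 in the other family members, 2 of 15 in inflammasome and release and 7 of 24 among the induced genes.

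The genes whose levels followed 3 members most closely were ranked by Pearson's r over the 10 arrays after removal of group means, among the brightest probe sets of 18184 other genes. For Il1b they were Klhl4 (0.969), Cmtm6 (0.952), Clec4e (0.944), Acod1 (0.930) and Insig2 (0.929). Clec4e is Mincle, a myeloid receptor, and rose by 1.11 (adjusted p = 0.0011). Acod1, which makes itaconate in activated macrophages, rose by 1.47 (adjusted p = 0.00221), while Klhl4 differed by -0.02 (adjusted p = 0.919). Cmtm6 rose by 0.34 (adjusted p = 0.0161). Without the 3 arrays with high choroid plexus markers Clec4e gave 1.04 (adjusted p = 0.10), Acod1 1.38 (adjusted p = 0.131) and Cmtm6 0.30 (adjusted p = 0.312). Spearman's rho was 0.915, 0.879, 0.794, 0.709 and 0.830 in the order of the list. Without TPlp+AxL 2 and TPlp+AxL 4, the arrays farthest from the median in Il1b, r was 0.920, 0.788, 0.858, 0.735 and 0.698.

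For Il1rn they were Npy2r (0.968), Capn3 (0.946), Ccdc85a (0.914), Gm3924 (0.911) and Slco4c1 (0.904), none of which passed the test between the groups. Without AxL 4 and TPlp+AxL 2, r was 0.932 for Npy2r and fell to 0.454 for Ccdc85a and 0.418 for Gm3924, so that the likeness of these last genes rests on those arrays. For Il1r1 they were AI467606 (0.929), Hltf (0.923), Helz2 (0.920), Islr (0.907) and Tent5a (0.904), with r of 0.755 to 0.928 without TPlp+AxL 2 and AxL 2. With 10 arrays and 18184 genes compared, values of this size are descriptions of these arrays.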

How the data were processed

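RNA from the hippocampus of each of 10 mice (5 AxL, 5 TPlp+AxL) was hybridised to 1 array per mouse. The deposited values are log2 expression values made by the authors with RMA, per the submitters' processing notes, which give no version. RMA corrects background, normalizes and summarises probes, and it compresses changes of dim probe sets. The number of arrays limits the precision. The labels do not say that mice were pooled.

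The table holds 45101 probe sets, of which 64 controls were left out. Symbols came from the platform annotation and were updated by Entrez number through RefSeq on GRCm38.p6: 34945 probe sets have 1 symbol (34754 matched), 932 several and 9160 none. Genes are represented by their brightest probe set where lists are counted. Changes, TPlp+AxL minus AxL, were fitted on all 45037 probe sets with limma 3.58.1 in R 4.3.3 (lmFit, eBayes), with Benjamini-Hochberg adjustment over all of them and an adjusted p of 0.05 as the threshold. The code was tested on simulated data. Folds are powers of the log2 change.

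The members and lists were chosen with earlier results of these data known, so their counts are descriptions. The text names every member, up to 4 called genes per list with the largest change, up to 3 called genes per marker list, and the 5 genes most like each of Il1b, Il1rn and Il1r1. Marker genes that did not pass, and Cxcl1, were added after their values were seen. Alternatives were a trended robust variance, the brighter part of the probe sets, other scalings, array weights, a replicate block, a choroid plexus covariate, a threshold of 0.10 and leaving out each array. Leaving out the 3 arrays with high choroid plexus markers was added after seeing the data.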

Additional observations from a re-analysis of the deposited data

Results flagged for a closer look

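Of 32 groups of 5 arrays examined (16 probe sets in both conditions), 2 held an array far from the other 4, and chance alone gives about 1 in 20 such groups. In the decoy receptor Il1r2, AxL 5 read 8.19 where the next highest AxL array read 8.05, a gap of 0.834 of the group's whole range. In the Il1rap probe set 1421843_at, TPlp+AxL 4 read 7.67 where the next lowest TPlp+AxL array read 7.81, a gap of 0.763 of the range. The critical share for 5 samples is 0.71. AxL 5 is also among the arrays with high choroid plexus markers, and the part of that in the Il1r2 value was not tested.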

How the results depend on the processing

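Il1b, Casp1 and the Il1rn probe set 1451798_at passed under every planned setting in which they were tested (18, 18 and 17), with log2 changes of 1.03 to 1.22, 0.44 to 0.53 and 0.57 to 0.66. Il1a passed in 16 of 17 and missed with the replicate number as a block (adjusted p = 0.0564), where the changes themselves do not move. The deviations from the group means correlated over 0.1 in 2 of 5 same-numbered pairs (0.36 and 0.27), short of every pair, so the unblocked fit was kept; whether mice with the same number share anything else is not given in the labels. The block also ended the calls of Cd3d (0.107), S100a8 (0.0771), S100a9 (0.0752), Mmp8 (0.0553), Saa3 (0.0832), Il18r1 (0.147), Gsdmd (0.134) and Cmtm6 (0.081), all adjusted p. That block gave 38 lower probe sets, 0 other family genes and 1 inflammasome gene.

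Against 5 higher member probe sets, leaving out 1 array gave 4 to 5, the brighter part of the probe sets 3, since 2 called ones are dimmer, and leaving out the 3 arrays with high choroid plexus markers 0. Over all probe sets, 291 higher became 159 to 387 without 1 array, 191 in the brighter part, 465 with array weights, 490 at a threshold of 0.10 and 1 without the 3 arrays. The 85 lower became 26 to 187, 210 with medians subtracted, 43 with cyclic loess, 288 with array weights, 42 with the choroid plexus covariate, 267 at 0.10 and 0 without the 3 arrays.

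Called genes of the signalling chain (1) became 0 to 1 without 1 array. Other family genes (1) became 0 to 2, 2 with the trended robust variance, 0 in the brighter part and 2 at 0.10. Inflammasome genes (2) became 1 to 3, 0 in the brighter part, 1 after quantile normalization and 1 with the choroid plexus covariate. Induced genes (7) became 6 to 10. Without the 3 arrays all 4 lists gave 0.

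Signs turned only for changes that never passed. Il18 became -0.0079 with medians subtracted and ran from -0.033 (TPlp+AxL 3 left out) to 0.059 over the fits that leave out 1 array, below 0 also without AxL 4 (-0.024) or AxL 5 (-0.0070). Il1r1 1459777_at became 0.0095 after quantile normalization and ran from -0.063 to 0.011 (AxL 5 left out), and Il1r1 1448950_at from -0.059 to 0.0021 (TPlp+AxL 2 left out). Il1rap 1421844_at ran from -0.023 (AxL 1 left out) to 0.079, and Il1rap 1439697_at became -0.042 without the 3 arrays. The cause was not tested for any of these. Probe sets with a level over 12 had a median change of -0.14 as deposited and 0.0024 after quantile normalization.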
